A study of Mus musculus with 12 samples.

Results

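*Malat1* and 8 other rows of the count tables that hold long noncoding RNAs (lncRNAs) or lie within one were examined in the brain of *Snx14*-KO mice. The 9 members, of 55536 annotated genes, were *Malat1*, *Gm27694*, *Gm37376*, *Neat1*, *Meg3*, *Rian*, *Mirg*, *Miat* and *Snhg11*, selected on their GENCODE vM21 names. *Malat1* was picked from these data for its lower count in *Snx14*-KO cortex, and *Gm27694* and *Gm37376* are annotated entirely within *Malat1*. The cortex values of these 3 rows are therefore a description, without a test, and so are their values in any comparison that contains those libraries. RNA from the cerebellum and the cerebral cortex of 1-month-old mice was sequenced in 12 libraries, 3 for each tissue and genotype. WT mice were compared with *Snx14*-KO mice, which are homozygous for a frameshifting 1-base deletion in *Snx14* on the C57BL/6J background. *Snx14* encodes a sorting nexin of the endoplasmic reticulum and lipid droplets. The deletion is constitutive, all *Snx14*-KO mice carry the same allele, and the tissue was a mix of cell types, so fewer cells of a type and less RNA per cell cannot be told apart in these values.

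Long noncoding RNAs are transcripts that act without being translated, and several of the members are known to stay in the nucleus. *Malat1* gathers at nuclear speckles, bodies rich in splicing factors, and *Neat1* is the scaffold on which paraspeckles form. *Meg3*, *Rian* and *Mirg* are transcribed from the maternal copy of the imprinted Dlk1-Dio3 domain and host small nucleolar RNAs and miRNAs. *Miat*, also called Gomafu, is a neuronal RNA whose repeats bind splicing factor 1, and *Snhg11* hosts a small nucleolar RNA and is expressed in neurons. Where in the cell the RNAs were was not measured here.

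The sequences show what sets *Malat1* and *Neat1* apart from the other members. The 3' ends of *Malat1* and of the long isoform of *Neat1* are not made by the usual polyadenylation. RNase P cleaves in front of a tRNA-like element, and the end is held in a triple helix of U-rich stretches and an A-rich tract. The 110 bases up to and including the A-rich tract are shown for both RNAs, 5' to 3', as DNA letters from the GENCODE vM21 transcripts (GRCm38), with the runs of 10 or more bases that both windows hold in capitals.
Malat1: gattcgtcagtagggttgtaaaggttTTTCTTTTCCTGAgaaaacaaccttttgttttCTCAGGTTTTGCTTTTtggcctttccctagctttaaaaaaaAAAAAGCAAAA
Neat1: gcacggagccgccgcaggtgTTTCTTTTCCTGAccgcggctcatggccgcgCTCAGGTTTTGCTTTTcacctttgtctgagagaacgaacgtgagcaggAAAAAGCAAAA
The *Malat1* window lies at chr19:5795982-5796091 on the minus strand, and 292 more bases of the annotated transcript follow it. The *Neat1* window lies at chr19:5824708-5824817 on the minus strand and ends where the annotated transcript ends. The windows share 3 runs. The 16-base run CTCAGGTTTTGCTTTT was in the longest transcript of 2 of 55450 genes (0.00361%), searched on the transcript strand, which were *Malat1* and *Neat1* themselves. The 13-base run TTTCTTTTCCTGA was in 17 genes (0.0307%), and the 11-base A-rich run AAAAAGCAAAA in 304 (0.548%). A match of letters is a description and shows neither cleavage nor a helix. The study describes mRNA libraries, and how fully RNAs with such ends entered them was not measured. The levels of *Malat1* and *Neat1* given below are those of the counted RNA.

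*Gm27694* (ENSMUSG00000098462.1) is 86 bases long, is annotated as a miscellaneous RNA and lies at chr19:5799000-5799085 on the strand of *Malat1*. It is shown because its row counts the middle of *Malat1*, from base 3588 to 3673 of that transcript.
Gm27694: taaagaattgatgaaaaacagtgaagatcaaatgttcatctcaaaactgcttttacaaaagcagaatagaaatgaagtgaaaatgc
*Gm37376* (ENSMUSG00000102349.1) is a 453-base transcript, still to be experimentally tested according to its annotation, at chr19:5801941-5802393 on the opposite strand. It covers bases 280 to 732 of *Malat1* in antisense. The counting ignored the strand, so reads of *Gm37376* and of *Malat1* cannot be told apart.

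*Miat* stands apart from the other members by its repeats of ACTAAC, 6 bases that resemble the branch point of introns. The longest annotated *Miat* transcript (9163 bases) held 11 copies on its own strand, against 4 in *Neat1*, 1 in each of *Meg3*, *Mirg* and *Snhg11* and 0 in *Malat1* and *Rian*. Of 2357 lncRNA genes with a transcript of at least 2000 bases, 800 (33.9%) held the motif, and 3, *Miat* among them, held at least 11 copies (0.127%). The stretch below, at chr5:112217319-112217449 on the minus strand (GRCm38), holds 4 copies, which are in capitals.
Miat: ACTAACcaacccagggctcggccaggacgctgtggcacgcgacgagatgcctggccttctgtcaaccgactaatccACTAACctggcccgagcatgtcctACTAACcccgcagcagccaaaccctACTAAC

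**Figure D1:**
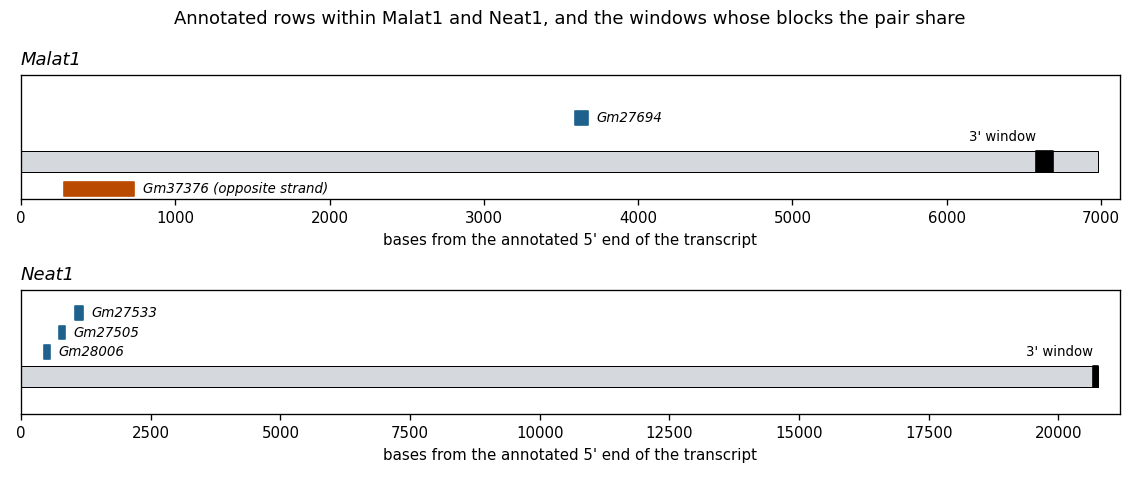
Annotated rows within *Malat1* (6983 bases, upper panel) and *Neat1* (20771 bases, lower panel), drawn by their distance in bases from the 5' end of each transcript. Blue bars are rows on the same strand, the orange bar is a row on the opposite strand, and black marks the 110-base windows whose shared runs are given in the text.

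The libraries held 16672589 to 19887427 counts on genes. Levels are given as CPM, the count scaled to a fixed library total, after TMM normalization over the 12 libraries, where TMM corrects for a difference in composition. *Snx14* was counted at 53.6 to 59.8 CPM in WT cortex and 7.69 to 8.50 CPM in *Snx14*-KO cortex, and at 63.6 to 67.0 against 10.4 to 11.2 CPM in cerebellum. In both tissues it was the 1 gene called in the comparison of genotypes (cortex: 1 of 18255 genes, 0.00548%; cerebellum: 1 of 18201 genes, 0.00549%), at an adjusted p under 0.05 from edgeR's quasi-likelihood test. DESeq2, the tool of the study, called 16 genes in cortex and 206 in cerebellum. Library 1 of each group had 6943 to 11766 reads of *Xist* (0 to 97 in the others) and at most 3 reads on 4 Y-linked genes, and libraries 2 and 3 had 2574 to 3428 Y-linked reads. All 9 members passed the filter on low counts in each comparison.

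By CPM, which is not corrected for length, 4 of the members were among the abundant lncRNAs in both tissues. Among 10156 lncRNA genes, with *Snhg11* counted among them, ranked by mean CPM in WT cortex, *Meg3* stood at 4, *Rian* at 7, *Snhg11* at 9 and *Malat1* at 11. In WT cerebellum *Meg3* stood at 5, *Snhg11* at 7, *Malat1* at 8 and *Rian* at 11. *Miat* stood at 23 in WT cortex and at 757 in WT cerebellum. *Neat1* was at 189 and 64 in the same groups, and *Mirg* at 575 and 491. Ranked per kilobase of exon, the same 4 stood lower among the lncRNA genes, at 69 (*Snhg11*), 82 (*Meg3*), 95 (*Malat1*) and 137 (*Rian*) in WT cortex. In WT cerebellum these ranks were 77, 115, 74 and 233. The lncRNA genes ranked include types that overlap other genes, such as antisense. Read pairs were counted without strand for each gene they overlap, so rows in both rankings can hold reads of other genes. The 7 members other than the rows within *Malat1* held 0.156% to 0.291% of the counts on genes of a library. *Snhg11* is annotated as protein coding in GENCODE vM21.

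Per kilobase of exon, the order in WT cortex was *Snhg11* (66.0 ± 6.42 CPM per kilobase, SD, n = 3), *Meg3* (57.6 ± 5.89), *Malat1* (50.0 ± 3.51), *Rian* (34.4 ± 1.75), *Miat* (17.5 ± 1.22), *Neat1* (1.55 ± 0.782) and *Mirg* (1.46 ± 0.131). The ranges of *Snhg11* and *Meg3* overlapped, as did those of *Neat1* and *Mirg*, and the other neighbours in this order did not. In WT cerebellum the order was *Malat1* (54.9 ± 7.70), *Snhg11* (51.6 ± 13.5), *Meg3* (36.7 ± 8.50), *Rian* (17.01 ± 0.623), *Neat1* (3.34 ± 1.31), *Mirg* (1.56 ± 0.165) and *Miat* (0.737 ± 0.106). There, *Malat1* overlapped with *Snhg11*, and *Snhg11* with *Meg3*. *Malat1* thus exceeded *Neat1*, its neighbour on chromosome 19, in per-kilobase level in each of the 6 WT libraries. The *Neat1* value is divided by all 20771 bases, while its read pairs were dense near the 5' end. It can therefore be low for a short isoform, whose level was not estimated.

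**Figure D2:**
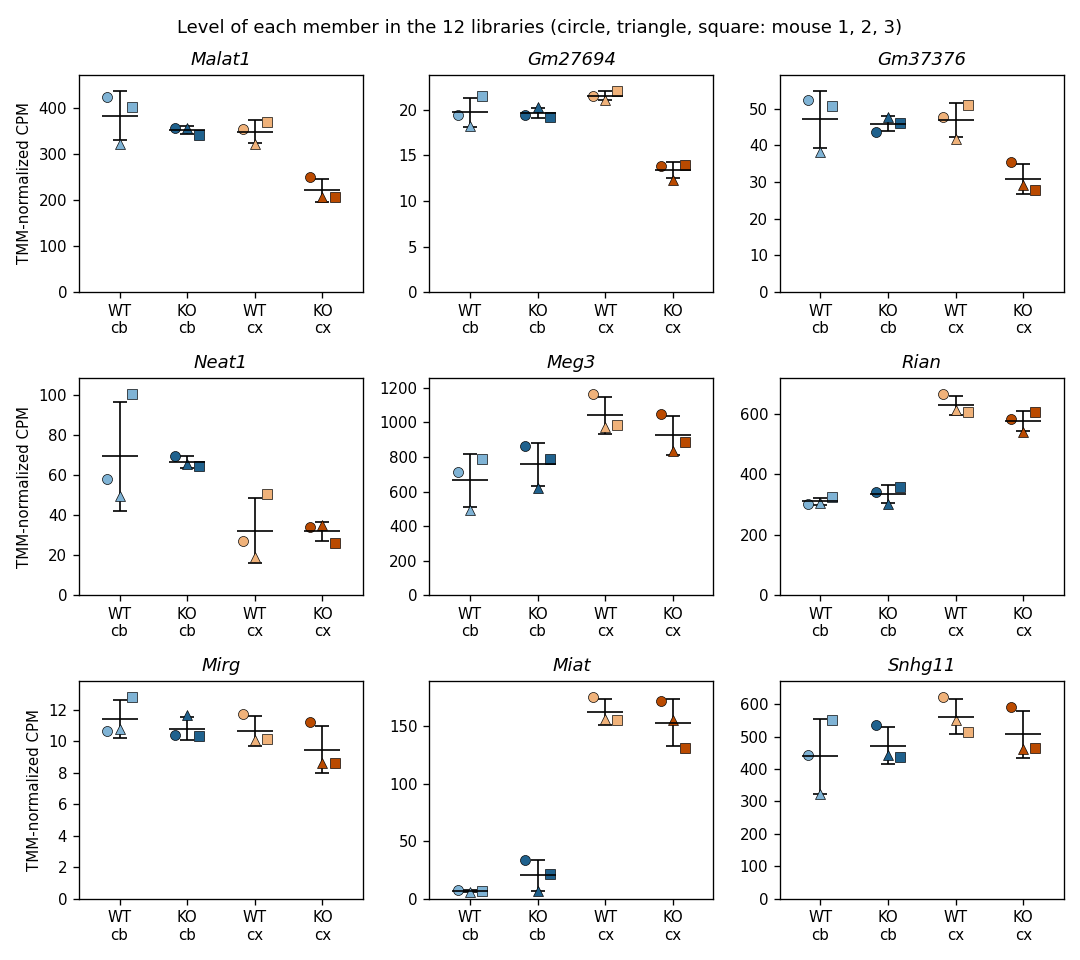
TMM-normalized CPM of the 9 members (y axes, from 0) in the 12 libraries, by group on the x axis (WT or KO for *Snx14*-KO, cb for cerebellum, cx for cortex). Points are libraries and bars are the mean ± SD of 3. The *Snx14*-KO cortices lie below the other groups for *Malat1* and its 2 nested rows, and *Miat* is lowest in the 3 WT cerebella and *Snx14*-KO cerebellum 2.

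*Malat1* (ENSMUSG00000092341.3, chr19:5795690-5802672, minus strand) had its lowest values in the *Snx14*-KO cortex. The 3 WT cortices had 355, 322 and 369.7 CPM, and the 3 *Snx14*-KO cortices had 249.6, 207.5 and 207 CPM. The highest *Snx14*-KO cortex was thus below the lowest WT cortex. On the log2 scale the difference was -0.66, a level 36.6% lower. Of all genes tested in cortex, 1.66% had a log2 fold change under -0.6, and in 4.67% the 3 *Snx14*-KO values were all under the lowest WT value. These shares are given as background, because the gene was picked for this difference. Leaving out 1 library at a time gave log2 differences from -0.75 to -0.61, and in libraries 2 and 3 of each group, those with Y-linked reads, it was -0.74. The rank of *Malat1* among all genes by CPM was 461 in WT and 936 in *Snx14*-KO cortex.

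In cerebellum, where the rule used no value, *Malat1* was tested and no difference was detected. The WT cerebella had 425, 323 and 403 CPM and the *Snx14*-KO cerebella had 357, 358 and 342 CPM. The *Snx14*-KO values lay within the range of the WT values and were closer together (352 ± 8.98 against 384 ± 53.7 CPM, SD, n = 3). The log2 fold change was -0.11 with a 95% interval from -0.33 to 0.11 (standard error 0.0979, adjusted p = 0.889). The difference between the 2 log2 fold changes was 0.53 in the fit of all 12 libraries, which is a description since it contains the cortex values. In WT mice the level in cerebellum was 10.2% higher than in cortex, with overlapping ranges.

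The rows within *Malat1* held shares of its counts that overlapped between genotypes in cortex. *Gm37376* had 47.8, 41.8 and 51.1 CPM in WT cortices and 35.4, 29.2 and 27.7 CPM in *Snx14*-KO cortices, a log2 difference of -0.61. *Gm27694* had 21.5, 21.1 and 22.1 CPM in WT cortices and 13.8, 12.3 and 14.0 CPM in *Snx14*-KO cortices, a log2 difference of -0.69. For both rows, as for *Malat1*, the genotypes did not overlap in cortex. Since the same read pairs are counted for the row and for *Malat1*, the rows are not further replicates of the difference. The count of *Gm37376* was 13.4% ± 0.417 of that of *Malat1* in WT cortex and 13.9% ± 0.419 in *Snx14*-KO cortex (SD, n = 3), with overlapping ranges. For *Gm27694* it was 6.20% ± 0.313 in WT cortex and 6.09% ± 0.629 in *Snx14*-KO cortex (SD, n = 3). In WT cerebellum the shares were lower than in WT cortex with no overlap, at 11.8% to 12.6% against 13.0% to 13.8% for *Gm37376* and 4.57% to 5.67% against 5.97% to 6.55% for *Gm27694*, which was not tested. In cerebellum neither row was called between genotypes. The log2 fold change was -0.02 for *Gm37376* (standard error 0.116, adjusted p = 0.986) and 0.0074 for *Gm27694* (standard error 0.105, adjusted p = 0.996).

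**Figure D3:**
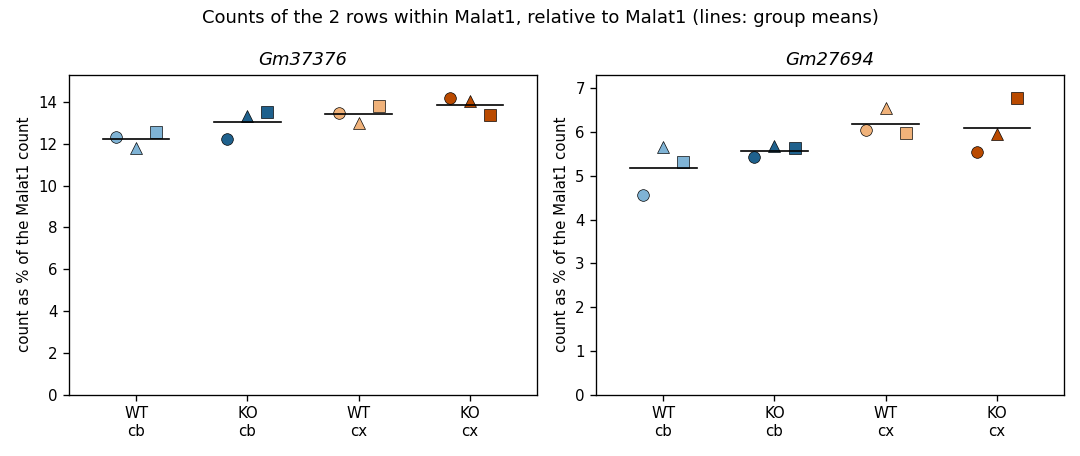
Counts of *Gm37376* (left) and *Gm27694* (right) as a percent of the *Malat1* count of the same library (y axes, from 0), by group (WT or KO, cb cerebellum, cx cortex). Circle, triangle and square are mouse 1, 2 and 3, and lines are group means. The shares of the genotypes overlap in cortex, where all 3 rows were lower in *Snx14*-KO.

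Genes of *Malat1* 3' end processing and RNA stability did not pass the test. The list held the RNase P subunits, the tRNA-processing enzymes Elac2 and Trnt1, and the methyltransferase *Mettl16*, which binds the triple helix. It also held *Mettl3*, *Mettl14*, *Ythdc1* and *Hnrnpc*, which write or bind m6A or bind RNA and are not known to make the 3' end. In cortex 6 of its 18 tested genes were higher and 12 lower in *Snx14*-KO, with a median log2 fold change of -0.02 against 8.19e-05 for all genes, and 1 had an unadjusted p under 0.05. That gene was *Trnt1*, which adds the terminal CCA to tRNA-like ends (log2 fold change -0.19, adjusted p = 0.996). In cerebellum 3 were higher and 15 lower (median -0.07 against -0.000616 for all genes), and 0 had an unadjusted p under 0.05. Their summed level was 635 to 677 CPM in *Snx14*-KO and 685 to 708 CPM in WT cerebella, with no overlap. *Pop7*, *Elac2*, *Mettl16* and *Hnrnpc* were below the 3 WT cerebella in each *Snx14*-KO cerebellum, which makes 4 of 18 where 6.32% of all genes tested were. In cortex the sums overlapped, at 578 to 633 CPM in *Snx14*-KO and 602 to 644 CPM in WT. There *Hnrnpc* was below the WT cortices in each *Snx14*-KO cortex, and *Pop7* and *Mettl3* were above them. Of all genes tested in cortex, 4.67% lay below in this way and 4.57% above. *Hnrnpc*, an RNA-binding protein of the nucleus, had log2 fold changes of -0.15 in both tissues (adjusted p = 0.996 in cortex and 0.641 in cerebellum). Proteins of the nuclear speckle, where *Malat1* gathers, had 7 genes higher and 17 lower in cortex (median -0.05) and 8 higher and 16 lower in cerebellum (median -0.02). None of these 24 was called, and 0 had an unadjusted p under 0.05. The speckle scaffold *Son* had a log2 fold change of -0.11 in cortex (adjusted p = 0.996). DESeq2 called 0 genes of either list in the comparisons of genotypes.

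The neighbours of *Malat1* on chromosome 19 were not called between genotypes. Within 200 kb, 26 other rows were tested, 3 of them within *Neat1*. In cortex 10 were higher and 16 lower in *Snx14*-KO (median log2 fold change -0.01, range -0.19 to 0.38), and 0 had an unadjusted p under 0.05. In cerebellum 5 were higher and 21 lower (median -0.05), and 1 had an unadjusted p under 0.05. It was *Sipa1*, a GTPase-activating protein (log2 fold change 0.38, adjusted p = 0.511). Neither edgeR nor DESeq2 called a neighbour.

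Oligodendrocyte genes had low values beside *Malat1* in *Snx14*-KO cortex. All 10 genes of this list, which encode myelin proteins and enzymes of myelinating cells, were lower in *Snx14*-KO cortex by log2 fold changes of -0.65 to -0.11 (median -0.27). None was called by edgeR or DESeq2, and 7 had an unadjusted p under 0.05, as did 822 of all 18255 genes tested. *Ermn*, a cytoskeletal protein of oligodendrocytes, came first (-0.48, adjusted p = 0.971), followed by *Mog*, a protein of the outer myelin surface (-0.35, adjusted p = 0.996). The summed level of the list was 7842, 8130 and 7935 CPM in WT cortices and 7248, 5561 and 7953 CPM in *Snx14*-KO cortices. In *Snx14*-KO cortex 3 the sum lay within the WT range, and *Malat1* was at 207 CPM. However, 6 of the 10 genes were below the 3 WT cortices in each *Snx14*-KO cortex, including that library, where 4.67% of all genes tested were. *Ermn* and *Mog* were among them. The part of oligodendrocytes in the *Malat1* values was not tested. *Snx14*-KO cortex 2 had the lowest sum, and without it the log2 difference of *Malat1* was -0.61. In cerebellum 9 of the 10 genes were lower (median -0.14) with 0 unadjusted p under 0.05.

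**Figure D4:**
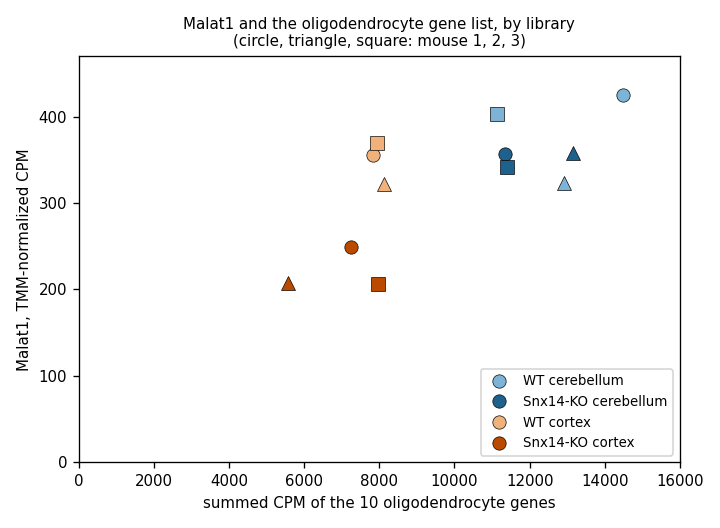
*Malat1* in TMM-normalized CPM (y axis) against the summed CPM of 10 oligodendrocyte genes (x axis) in the 12 libraries, both from 0. Circle, triangle and square are mouse 1, 2 and 3. *Snx14*-KO cortex 3 lies at 7953 on the x axis, within the WT cortices, and at 207 on the y axis, below them, while 6 of the 10 genes were below the WT cortices in each *Snx14*-KO cortex.

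Markers of other cells were counted too. Meningeal fibroblast genes were higher in *Snx14*-KO cortex for 12 of 12 (median log2 fold change 0.74), with summed levels of 132, 378 and 122 CPM against 94 to 145 CPM in WT. The sum of *Snx14*-KO cortex 2 was high, and those of the other 2 lay within the WT range. Endothelial genes were higher for 10 of 10 (median 0.23), and choroid plexus genes lower for 6 of 6 tested (median -0.68). The choroid plexus sum was 140, 16.96 and 20.8 CPM in WT cortices and 9.78 to 13.2 CPM in *Snx14*-KO cortices, so that WT cortex 1 stood apart. Genes of neurons (8 higher and 4 lower, median 0.04), forebrain excitatory neurons (7 higher and 5 lower, median 0.04), astrocytes (8 higher and 2 lower, median 0.02) and microglia (9 higher and 3 lower, median 0.10) had smaller medians. The first of the astrocyte genes was *Gfap*, an intermediate filament of astrocytes, at 200.6 to 1047 CPM in *Snx14*-KO and 147 to 198 CPM in WT cortices (log2 fold change 1.54, adjusted p = 0.996). Granule cell genes, expressed mainly in cerebellum, had 8 higher and 3 lower (median 0.04). None of these was called in cortex by edgeR or DESeq2. An unadjusted p under 0.05 was found for 7 meningeal, 2 endothelial, 2 choroid plexus, 2 microglia, 2 forebrain excitatory neuron, 1 neuron, 1 astrocyte and 1 granule cell gene. The part of these cell types in the *Malat1* values was not tested. In cortex each marker of these lists had counts in each library, except 1 choroid plexus gene in *Snx14*-KO cortex 2.

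Over the 12 libraries, each as a deviation from its tissue's mean of log2(CPM + 1), 5 genes other than the nested rows followed *Malat1* most closely among 19371. They were *Evi2a* (Pearson r = 0.98), *Cecr2* (0.92), *Mturn* (0.92), *Iqch* (0.89) and *Gm37494* (0.88). The libraries share normalization and cell makeup, and the difference in cortex is part of each r, so these are descriptions. *Evi2a* had 27.7, 26.4 and 27.5 CPM in WT cortices and 22.2, 19.5 and 19.85 CPM in *Snx14*-KO cortices. As for *Malat1*, the genotypes did not overlap in cortex, while the cerebella stood at 39.0 to 43.6 CPM. *Mturn* had 106 to 199.6 CPM over the libraries and a log2 fold change of -0.30 in cortex and -0.03 in cerebellum. *Iqch* had at most 0.698 CPM in a library.

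*Neat1* (ENSMUSG00000092274.3, chr19:5824708-5845478, minus strand) overlapped between genotypes in cortex. The WT cortices had 27.1, 19.1 and 50.3 CPM and the *Snx14*-KO cortices 34.3, 35.0 and 26.3 CPM. The 3 *Snx14*-KO values lay within the WT range. The log2 fold change was -0.01 ± 0.263 (SE, 95% interval -0.58 to 0.56, adjusted p = 0.997). In cerebellum the WT values were 57.9, 49.6 and 100.4 CPM and the *Snx14*-KO values 69.7, 65.5 and 64.5 CPM, with a log2 fold change of -0.05 ± 0.222 (SE, adjusted p = 0.984). WT mouse 3 had the highest *Neat1* level of the WT mice in both tissues. Leaving out WT library 3 turned both signs, to 0.46 in cortex and 0.32 in cerebellum, with adjusted p of 0.999 and 0.522. The correlation of *Neat1* with *Malat1* over the 12 libraries was 0.17.

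Between tissues, *Neat1* was higher in WT cerebellum than in WT cortex. It was 69.3 ± 27.3 CPM in cerebellum and 32.2 ± 16.2 CPM in cortex (SD, n = 3), a log2 fold change of 1.12 ± 0.333 (SE, adjusted p = 0.0149). In each of the 3 WT mice the cerebellum exceeded the cortex, although the group ranges overlapped through mouse 3. With the mouse as a block, the log2 fold change was 1.15 (adjusted p = 9.12e-06). The unpaired call was lost with DESeq2 (adjusted p = 0.0549), in libraries 2 and 3 (0.0570), without WT cortex 1 (0.0610) and without WT cortex 2 (0.0581).

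Read pairs on *Neat1* were dense near its 5' end, where the short isoform lies. The rows *Gm28006*, *Gm27505* and *Gm27533*, at bases 442 to 563, 732 to 841 and 1042 to 1193 of the transcript, each held 7.61% to 14.7% of its count in a library. Their counts per kilobase were 11.7 to 26.8 times that of the whole transcript, a ratio raised by the length of the fragments, which extend beyond such short rows. Genes of paraspeckle proteins, with which *Neat1* assembles, had 7 of 18 higher and 11 lower in cortex (median log2 fold change -0.02). In cerebellum 8 were higher and 10 lower (median -0.02), and 1 had an unadjusted p under 0.05. It was *Hnrnph3*, a splicing protein (log2 fold change -0.18, adjusted p = 0.483). None was called by edgeR or DESeq2 in either tissue. *Nono*, a core paraspeckle protein, had 132 ± 3.67 CPM in WT and 130.0 ± 9.16 CPM in *Snx14*-KO cortex (SD, n = 3). Between WT tissues, where 57.4% of all genes tested were called, 8 of the 18 were called higher and 1 lower in cerebellum, with *Hnrnph3* (log2 fold change 0.65, adjusted p = 3.59e-05) and *Hnrnpm* (0.53, adjusted p = 0.000361) first.

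*Meg3*, *Rian* and *Mirg* lie in this order on the plus strand of chromosome 12. *Meg3* (ENSMUSG00000021268.17, chr12:109541001-109571726), a maternally expressed RNA known as a growth suppressor, was the member with the most counts. The WT cortices had 1164, 974 and 987 CPM and the *Snx14*-KO cortices 1051, 837 and 888 CPM. The ranges overlapped by 1 library, and the log2 fold change was -0.17 ± 0.0925 (SE, 95% interval -0.37 to 0.03, adjusted p = 0.996). In cerebellum the WT libraries had 716, 492 and 786 CPM and the *Snx14*-KO libraries 865, 623 and 786 CPM. These overlapped as well, with a log2 fold change of 0.20 ± 0.173 (SE, adjusted p = 0.878).

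*Rian* (ENSMUSG00000097451.10, chr12:109603940-109661716), also called Meg8, hosts a cluster of small nucleolar RNAs. It had 664, 613 and 605 CPM in WT cortices and 581, 538 and 604 CPM in *Snx14*-KO cortices. The genotypes did not overlap, by a margin of under 1 CPM between 605.1 and 604.2, and the log2 fold change was -0.13 ± 0.0666 (SE, adjusted p = 0.996). In cerebellum *Rian* had 302, 305 and 323 CPM in WT and 341, 301 and 358 CPM in *Snx14*-KO libraries, a log2 fold change of 0.12 ± 0.0812 (SE, adjusted p = 0.818). *Mirg* (ENSMUSG00000097391.8, chr12:109729764-109749460), a host of miRNAs, had 11.7, 10.04 and 10.1 CPM in WT and 11.2, 8.61 and 8.58 CPM in *Snx14*-KO cortices. Its log2 fold change was -0.17 in cortex (standard error 0.150, adjusted p = 0.996) and -0.07 in cerebellum (standard error 0.132, adjusted p = 0.964).

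Of the 3 RNAs of the domain, *Rian* and *Meg3* were lower in WT cerebellum than in WT cortex, and *Mirg* was not called. In WT mice *Rian* was 628 ± 32.0 CPM in cortex and 310.2 ± 11.4 CPM in cerebellum (SD, n = 3), with no overlap and a log2 fold change of -1.01 ± 0.0660 (SE, adjusted p = 3.56e-07). *Meg3* was also lower in cerebellum, by a log2 fold change of -0.64 ± 0.150 (SE, adjusted p = 0.00378), again with no overlap. *Mirg* had a log2 fold change of 0.10 (95% interval -0.20 to 0.40, adjusted p = 0.536). The intervals of *Rian* (-1.16 to -0.87) and *Mirg* did not meet, and a test of the difference between genes was not run. The comparison of WT tissues shares its libraries with both comparisons of genotypes. The background is large here, since 10637 of 18543 genes (57.4%) were called between the WT tissues, and 4 of the 6 members tested were.

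Other genes in and around the Dlk1-Dio3 domain, most of which flank it, were not called between genotypes. In cortex 4 were higher and 5 lower (median log2 fold change -0.04), and in cerebellum 6 were higher and 3 lower (median 0.06), with 0 unadjusted p under 0.05 in either and 0 called by DESeq2. *Rtl1*, an imprinted gene expressed from the paternal copy, had a log2 fold change of -0.44 in cortex (adjusted p = 0.996) and 0.65 in cerebellum (adjusted p = 0.748), at 1.21 to 3.97 CPM. *Dlk1*, a paternally expressed Notch-like protein that names the domain, varied from 0.322 to 15.4 CPM between libraries. Within 200 kb of the 3 RNAs, 14 other rows were tested in cortex, of which 3 were higher and 11 lower (median -0.24). An unadjusted p under 0.05 was found for 2 of them, *Mir1906-1* (log2 fold change -0.26) and *Gm24895* (-0.21), both with an adjusted p of 0.996. Of 12 in cerebellum, 8 were higher and 4 lower (median 0.29), and 1 had an unadjusted p under 0.05, *Gm27300* (log2 fold change 1.03, adjusted p = 0.428). Most of these rows lie within *Meg3*, *Rian* and *Mirg* and count the same read pairs. 

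*Miat* (ENSMUSG00000097767.8, chr5:112213228-112229395, minus strand) had the largest difference between tissues of the members tested. The WT cortices had 175, 156 and 155 CPM and the WT cerebella 7.78, 5.83 and 6.93 CPM, so that cortex was 23.6 times cerebellum. The log2 fold change was -4.56 ± 0.107 (SE, adjusted p = 2.35e-10). It kept within -4.66 and -4.46 when a library was left out. Of the exon bases of *Miat*, 30.4% also belong to other genes, mostly *Gm26953*, whose reads cannot be told apart from those of *Miat* there.

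In *Snx14*-KO cerebellum *Miat* had more counts than in WT in 2 of the 3 libraries. The 3 had 33.5, 6.23 and 21.1 CPM, from 700, 113 and 389 counts, against 101 to 140 counts in the WT cerebella. *Snx14*-KO cerebellum 2 lay within the WT range and the other 2 were above it. The log2 fold change was 1.58 ± 0.473 (SE, 95% interval 0.51 to 2.65). It did not pass, with an adjusted p of 0.381 by edgeR and 0.404 by DESeq2. Without the filter on low counts edgeR called it (adjusted p = 0.00157), as 1 of 389 genes. Without *Snx14*-KO cerebellum 2 the log2 fold change was 2.00 (adjusted p = 0.00221), and that choice moved the count of all genes called from 1 to 264. Without *Snx14*-KO cerebellum 1 it was 1.01 (adjusted p = 0.668). In cortex *Miat* had 175, 156 and 155 CPM in WT and 172, 156 and 131 CPM in *Snx14*-KO libraries, with a log2 fold change of -0.08 ± 0.0967 (SE, adjusted p = 0.996).

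Genes with the same pattern as *Miat* over the libraries, looked up after the *Miat* values were seen, began with *Gm26953*, which overlaps it (Pearson r = 0.99 after removal of tissue means). *Cdh9*, a cadherin, followed (0.99) and then *Pou3f1*, a neuronal transcription factor (0.98). *Cdh9* had 5.16, 0.772 and 4.23 CPM in *Snx14*-KO cerebella against 0.462 to 0.890 CPM in WT cerebella, and 19.3 to 24.3 CPM in cortex. *Pou3f1* had 10.04, 3.09 and 7.53 CPM against 3.17 to 4.34 CPM in WT cerebella, and 35.2 to 39.3 CPM in cortex. *Cdh9* and *Pou3f1* lay above the WT cerebella in *Snx14*-KO cerebella 1 and 3, and both were higher in cortex than in cerebellum, as *Miat* was. Next came *Evx2* and *4930539E08Rik* (0.97 each). *Evx2*, at 0 to 1.15 CPM over the libraries, was not tested in cortex and had a log2 fold change of 0.74 in cerebellum. *4930539E08Rik* was not tested in cerebellum and had a log2 fold change of -0.10 in cortex. *Bcl11b*, a transcription factor of forebrain neurons, had 1.60 to 7.55 CPM in *Snx14*-KO and 1.39 to 1.93 CPM in WT cerebella (log2 fold change 1.61, adjusted p = 0.383). The list of 12 forebrain excitatory neuron genes as a whole had 4 higher and 5 lower in cerebellum among the 9 tested (median -0.02). Its summed level was 585 to 697 CPM in WT and 548 to 619 CPM in *Snx14*-KO cerebella. In 4 of the 6 cerebella 1 gene of this list was at 0. The part of forebrain tissue in the *Miat* values was not tested.

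Cell type lists were also counted in the cerebellum. Granule cell genes were lower for 12 of 12 (median log2 fold change -0.31), microglia genes higher for 12 of 12 (median 0.96) and meningeal fibroblast genes higher for 12 of 12 (median 1.15). The summed level of the microglia genes was 266, 290.3 and 670.4 CPM in *Snx14*-KO and 220.4 to 280.3 CPM in WT cerebella, so that *Snx14*-KO cerebellum 3 stood apart. Choroid plexus genes were lower for 8 of 8 (median -0.71), with sums of 81.9, 2733 and 7407 CPM in WT and 2033, 3208 and 969 CPM in *Snx14*-KO cerebella, so that the WT values spanned those of *Snx14*-KO and WT cerebellum 3 was the highest. Astrocyte genes had 8 higher and 2 lower (median 0.27), endothelial genes 8 higher and 2 lower (median 0.16), and neuron genes 4 higher and 8 lower (median -0.02). The sums of the genotypes did not overlap for meningeal fibroblast genes (465 to 492 CPM in *Snx14*-KO and 175 to 350 CPM in WT cerebella). The same held for astrocyte genes (8270 to 9264 against 7549 to 8179 CPM), while the sums of the other lists overlapped. By edgeR 0 genes of these lists were called. An unadjusted p under 0.05 was found for 7 granule cell, 8 microglia, 10 meningeal, 6 astrocyte, 2 endothelial, 1 neuron, 0 choroid plexus and 3 forebrain excitatory neuron genes, and for 1484 of all 18201 genes tested. DESeq2 called 2 granule cell, 9 meningeal, 1 astrocyte and 1 forebrain excitatory neuron gene of these lists, and 206 genes in all. Their part in the values of the members was not tested.

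*Snhg11* (ENSMUSG00000044349.15, chr2:158375638-158386145, plus strand) had overlapping values in all comparisons. The WT cortices had 622, 551 and 514 CPM and the *Snx14*-KO cortices 591, 463 and 467 CPM, a log2 fold change of -0.15 ± 0.0997 (SE, adjusted p = 0.996). The WT cerebella had 444, 322 and 552 CPM and the *Snx14*-KO cerebella 537, 445 and 437 CPM, a log2 fold change of 0.12 ± 0.172 (SE, adjusted p = 0.946). Between WT tissues the log2 fold change was -0.35 (95% interval -0.71 to 0.0035, adjusted p = 0.0836). That call turned without WT cerebellum 3 (-0.55, adjusted p = 0.0039). Other host genes of small nucleolar RNAs had 7 of 16 higher and 9 lower in each tissue (median -0.03 in cortex and -0.0063 in cerebellum), and 0 had an unadjusted p under 0.05. *Snhg14*, the imprinted host antisense to *Ube3a*, had a log2 fold change of -0.18 in cortex (adjusted p = 0.996), and *Zfas1* one of 0.23 in cerebellum (adjusted p = 0.701).

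Over the members together, the 6 that were tested in cortex had log2 fold changes below 0, from -0.17 to -0.01 (median -0.14), and edgeR called 0 of 6. None had an unadjusted p under 0.05 and DESeq2 called 0. *Rian* was the 1 of these 6 whose genotypes did not overlap, where 4.67% of all genes tested lay apart in that direction and 4.57% in the other. In cerebellum 5 of the 9 were higher and 4 lower (median 0.0074), edgeR and DESeq2 called 0 (1, *Miat*, by edgeR without the filter on low counts), and *Miat* was the 1 with an unadjusted p under 0.05. The genotypes overlapped for all 9 there, where 6.32% of genes were lower with no overlap and 6.22% higher. A difference between tissues in the effect of genotype was called for 0 of 6 members, as for 0 of 19380 genes (0.00%). *Miat* (1.66, adjusted p = 0.518) and *Rian* (0.23, adjusted p = 0.864) had an unadjusted p under 0.05 in that test, and DESeq2 called 0 of the 6. *Miat* was called there without *Snx14*-KO cerebellum 2 (adjusted p = 0.000109) and without the filter on low counts (adjusted p = 3.67e-29). The p without the filter cannot be read as a measure of the spread between mice. With the filter the standard error was 0.508, and *Snx14*-KO cerebellum 2 lay within the range of the WT cerebella.

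**Figure D5:**
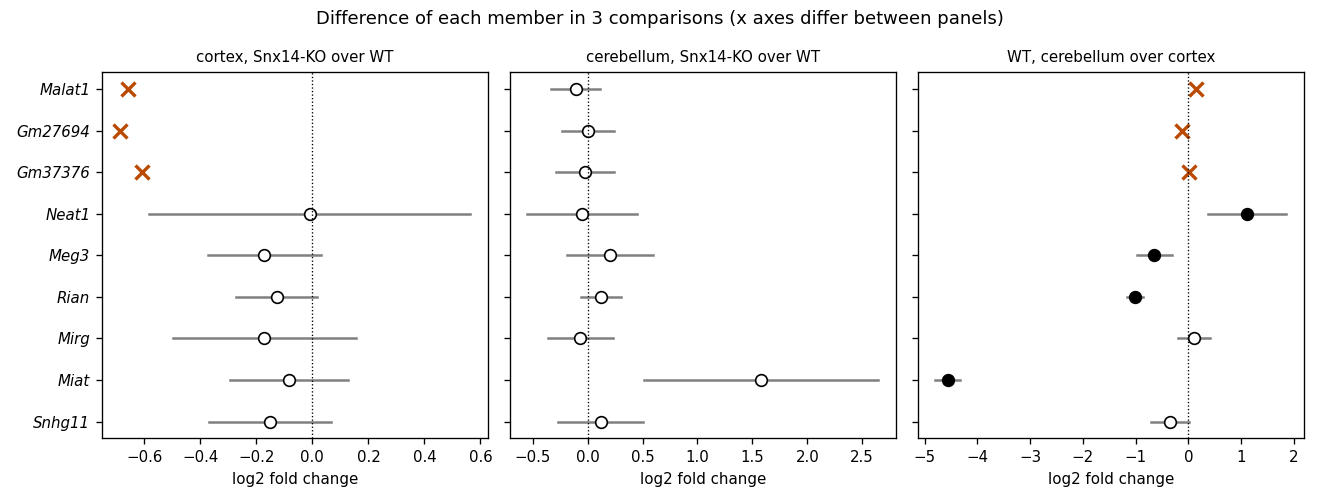
Log2 fold change (x axis, different in each panel) of the 9 members between genotypes in cortex, between genotypes in cerebellum, and between WT tissues. Circles are tested values with 95% intervals, filled at an adjusted p under 0.05 by edgeR, and crosses are the 3 rows given without a test. Between genotypes no circle is filled, and between tissues *Neat1*, *Meg3*, *Rian* and *Miat* are.

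A list of 30 other noncoding RNAs, mostly lncRNAs but with small RNAs such as *Rn7sk*, was also examined. Of the 26 found by name, none was called between genotypes by edgeR. In cortex 6 were higher and 13 lower (median log2 fold change -0.12), and 4 had an unadjusted p under 0.05. *Rn7sk*, the small nuclear RNA that holds the elongation factor P-TEFb, had the largest difference (-2.77, adjusted p = 0.996), at 17 to 299 counts in WT and 13 to 19 in *Snx14*-KO cortices, so that 1 WT library carried most of it. *Ftx*, a transcript of the X-inactivation centre, had -0.36 and *Sox2ot*, which overlaps *Sox2*, -0.33 (both adjusted p = 0.996). In cerebellum 8 were higher and 12 lower (median -0.06), 3 had an unadjusted p under 0.05 and DESeq2 called 1. *Nespas*, antisense to the imprinted *Gnas* promoter, came first (2.35, adjusted p = 0.178), with 5 to 9 counts in WT and 19 to 53 in *Snx14*-KO cerebella. *Tug1*, a widely expressed lncRNA, stood at 125 ± 2.52 CPM in WT and 114 ± 3.84 CPM in *Snx14*-KO cortex (SD, n = 3), with a log2 fold change of -0.13 (adjusted p = 0.996), and had a log2 fold change of 0.0483 in cerebellum (adjusted p = 0.958).

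Among the members themselves, the correlations over the 12 libraries, with tissue means removed, were highest where read pairs are shared. They were 0.98 for *Malat1* with *Gm37376* and 0.92 with *Gm27694*. *Meg3* and *Snhg11*, on different chromosomes, had 0.91 (0.96 within cortex and 0.89 within cerebellum), and *Meg3* and *Rian* 0.69. *Meg3* and *Mirg*, of the same domain, had 0.97 within cortex and -0.03 within cerebellum. *Malat1* had 0.62 with *Mirg*, 0.49 with *Snhg11*, 0.48 with *Meg3*, 0.38 with *Rian* and -0.0054 with *Miat*. Apart from *Mir770*, which lies within it, *Meg3* was followed most closely by *Slc27a3*, a fatty acid transport protein (0.91), *Izumo4* (0.90), *Dhtkd1*, a mitochondrial dehydrogenase subunit (0.90), and *Gm19605* (0.89). *Slc27a3* was at 1.21 to 4.09 CPM. All these points share the depth and composition of their library, and the labels give the cortices the same mouse numbers as the cerebella.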

How the data were processed

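RNA-Seq libraries came from 2 brain tissues, cerebellum and cortex, of WT and *Snx14*-KO mice aged 1 month (n = 3 per group). Reads were trimmed, mapped to GRCm38 with STAR and counted with featureCounts (v2.0.1), and the authors deposited raw counts per gene without normalization. Per the file headers, read pairs were counted without strand, pairs that overlapped several genes were counted for each, and multimapping pairs were not counted. The study describes strand-specific mRNA libraries, while the labels name a kit without giving the strand. Genes were named from GENCODE vM21. The deposited counts also cover 26248 numbered features (0.0506% to 0.0632% of a library) and 97 spike-ins without counts, which were left out, and the mitochondrial genes are at 0 in each library. Totals ranged from 16672589 to 19887427 counts on genes. No pair of libraries of the same group was identical.

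Genes with enough counts by filterByExpr (minimum count 10, minimum total 15) were fitted with edgeR (4.0.16) quasi-likelihood tests after TMM normalization, with *P* values adjusted by the Benjamini-Hochberg method over all genes tested. The threshold was an adjusted p of 0.05. Cortex and cerebellum were fitted separately for genotype, the 6 WT libraries for tissue, and all 12 for the interaction. DESeq2 (1.42.0), the tool the study used, was an alternative, as were other size factors, no filter, each library left out, the mouse number as a block, and libraries 2 and 3 only (chosen after seeing the data). The fit was tested on simulated data. Mice carry the same number in both tissues per the labels, and the deviations of same-numbered libraries correlated at 0.0731 to 0.159 in WT and 0.0178 to 0.338 in *Snx14*-KO mice. *Snx14*-KO cerebella 2 and 3 correlated more with a cortex of another number (0.0421 and 0.155). That equal numbers mean the same animal was read from the labels.

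Members and gene lists were chosen with earlier results of these data known. *Malat1*, *Gm27694* and *Gm37376* were not tested where the cortex genotype values entered. The text names the members, *Snx14*, up to 3 genes with the smallest p of a list, and the 5 genes most correlated with *Malat1* and with *Meg3*, while *Son*, *Nono*, *Tug1*, *Dlk1*, *Sipa1*, *Pop7*, *Mir1906-1*, *Gm24895*, *Gm27300*, *Evi2a*'s values and the genes like *Miat* were added after values were seen. Nothing in the labels says more of how mice were bred into groups, so p-values measure the spread between these animals. Those of the fits without a filter on low counts, where many more genes were called, are not read in this way. Intervals are at 95% and correlations are over log2(CPM + 1). Sequences were read from GENCODE vM21 transcripts.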

Additional observations from a re-analysis of the deposited data

How the results depend on the processing

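With 3 libraries per group, differences of the size seen for *Rian* or *Meg3* between genotypes could not be told from the spread. Read pairs that overlap several genes cannot be assigned to 1 of them. The alternative with library sizes without mitochondrial genes was not run, since these genes have no counts.

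The log2 difference of *Malat1* in cortex was -0.66 with DESeq2, -0.66 with its size factors in edgeR, -0.66 without a filter, -0.66 with the replicate block, and -0.74 in libraries 2 and 3. Genes called in cortex rose from 1 to 16 with DESeq2 and 218 without a filter (1 to 2 when a library was left out). In cerebellum they rose from 1 to 206 with DESeq2 and 389 without a filter (1 to 264 when a library was left out), and for the interaction from 0 to 40 and 418 (0 to 257). Members called went from 0 to 1, *Miat*, without a filter both in cerebellum (adjusted p = 0.00157) and for the interaction, and ranged from 0 to 1 in both when a library was left out. Between WT tissues 9645 to 10572 genes, and 3 to 5 members, were called with a library left out. The cause of these shifts was not tested.

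Signs turned for differences near 0. In cortex *Neat1* was 0.0863 with the replicate block, and with a library left out it ranged from -0.28 to 0.46 and *Miat* from -0.18 to 0.0162. In cerebellum *Neat1* was 0.0203 with the block (-0.24 to 0.32 with a library left out), *Gm27694* was -0.0037 with DESeq2, -0.0034 with its size factors and -0.0030 in libraries 2 and 3 (-0.0449 to 0.0710), and *Gm37376* was 0.0868 in libraries 2 and 3 (-0.15 to 0.0497). There *Mirg* ranged from -0.13 to 0.0217 and *Snhg11* from -0.0632 to 0.32 with a library left out, as did *Neat1* from -0.52 to 0.32 in the interaction. None of these was called under any of these alternatives.

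With the replicate block, 1 gene was called in cortex, 1 in cerebellum, 10611 between WT tissues and 0 for the interaction, and it changed no call of a member. Between genotypes, where a number names different mice but library 1 was in each group the one with the most *Xist* reads, same-numbered libraries correlated at -0.0917 to 0.0811, and not each library correlated best with its own number.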
